A study of Mus musculus with 17 samples.

Results

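Immunoglobulin gene segments in RNA of sorted regulatory T cells (Tregs) are described here. The members were the rows of the deposited count table named after a heavy chain (Igh), kappa (Igk) or lambda (Igl) constant, joining or variable segment whose counts summed to 17 or more over the 17 libraries. Of 47643 rows, 395 carried such a name or that of a heavy chain diversity segment, and 21 were members. They comprised 5 heavy chain constant rows, 11 heavy chain variable rows and 5 kappa variable rows, and no lambda row. Of the other immunoglobulin rows, 326 had no count in any library and 48 had between 1 and 16. The members were chosen by their summed counts over all libraries without regard to group, but a sparse row can reach the minimum through a single group. The members with the lowest sums were the Ighv12-1 row with 23 counts, the Ighv1-25 and Ighv1-1 rows with 21 each and the Ighv1-64 row with 19, while the Ighv1-85 and Ighv2-6 rows with 14 each lay just outside.

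An antibody is made of heavy and light chains, and each chain joins a variable region, which binds antigen, to a constant region, which sets the antibody's class. B cells assemble the variable exon by joining variable, diversity and joining segments of DNA, and plasma cells transcribe the joined genes at very high levels. T cells as a rule do not complete the joining of immunoglobulin genes and are not known for making antibody. Constant and variable segments can nonetheless be transcribed without joining. Mouse constant genes include Ighm and Ighd, used by naive B cells, and the IgG genes Ighg1, Ighg2b and Ighg3, used after class switching.

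The Tregs were spleen cells sorted on GFP from NOD mice, which develop autoimmune diabetes spontaneously, after enrichment of CD4+ T cells. All 3 groups carried the Foxp3-GFP reporter, in which GFP marks cells that express Foxp3, the Treg transcription factor. The transgenic group (genotype NOD-60A Tg+, 6 libraries) overexpressed Nfkbid, whose product is a member of the IkB family that acts in the nucleus on NF-kB. The knockout group (genotype NOD- Nfkbid-KO, 5 libraries) lacked it, and the control group (Control NOD, 6 libraries) had neither change. Transgenic libraries were made from 1 sample each, whereas 2 samples were pooled for every library of the other groups, so the transgenic group also differs from the others in pooling. All libraries carry 1 batch date. The library names of the controls have another prefix than those of both other genotypes, and its meaning is not stated in the labels. Serial numbers in the column headers follow the groups in part. Those of the knockout libraries form a run of their own, and those of control replicates 1 and 2 lie among the transgenic ones. Age, sex, the number of transgenic lines and the promoter that drives the transgene are not stated either.

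Library totals ran from 3133388 to 4726615 counts. Levels are given as CPM, the usual library-scaled count, with TMM factors, and 3 counts corresponded to 0.620 to 1.03 CPM. The members held 150 to 532 counts per library, or 0.00406 to 0.0124% of the total, so members were sparse, and the floor of 3 counts covers counting error only. Knockout replicates 2, 3 and 5 had 13466 to 13793 rows above 0 and 25.31 to 28.16% mitochondrial counts, against 15024 and 15908 rows and 22.04 and 22.55% in knockout replicates 1 and 4. The Foxp3 row held 256 to 368 CPM over all libraries. The Nfkbid row, on the targeted gene, ran from 6.99 to 11 CPM in the transgenic group, from 2.22 to 8.26 in the knockout group and from 3.07 to 5.38 among controls. By edgeR's quasi-likelihood test the knockout group differed from control by 0.06 on the log2 scale (SE 0.30, adjusted p = 0.914), and the row therefore does not check the knockout label. The groups below are those of the labels.

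Row names need the same care. Rows named after ubiquitous genes were empty or nearly so: the B2m and Tmsb4x rows held 0 counts throughout, and the Actb row had 0 to 7 per library. Names and counts thus do not match for many rows. The members are therefore called rows, and a name is that of the table. How far a row of these loci may stand from the gene it counts was examined by coordinate and is given after the values.

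Of the 217 heavy chain rows, 41 had any count and 16 were members, and of the 166 kappa rows, 27 had any count and 5 were members. The 20 diversity rows and all joining rows (4 heavy, 5 kappa and 5 lambda) had 0 counts. The Igkc row, of the only kappa constant gene, had 0 counts, as did the Ighg2c row. The Ighe row had 1 count, the Igha row 3 and the Iglc1 row 3, which were the only counts on the 12 lambda rows. By the annotation used here (GENCODE M21 on GRCm38), 9 of the 16 variable members are named after functional variable genes and 7 after variable pseudogenes. GRCm38 is the genome of another strain, and NOD alleles of these segments were not compared.

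Ighv14-2, the heavy variable row with the most counts, showed the sharpest contrast between the groups, and it belongs to a small family of near-identical segments. The GRCm38 coding sequences of Ighv14-2 (chr12:113994469-113994898, minus strand), Ighv14-1 (chr12:113931953-113932382, minus strand) and Ighv14-4 (chr12:114176438-114176867, minus strand), each of 351 bases with the leader and the variable exon joined, are shown from base 52 to base 351 to let the family be compared with its counts. In Ighv14-2, capitals mark bases at which either of the others differs, and in Ighv14-1 and Ighv14-4 they mark bases that differ from Ighv14-2.
Ighv14-2: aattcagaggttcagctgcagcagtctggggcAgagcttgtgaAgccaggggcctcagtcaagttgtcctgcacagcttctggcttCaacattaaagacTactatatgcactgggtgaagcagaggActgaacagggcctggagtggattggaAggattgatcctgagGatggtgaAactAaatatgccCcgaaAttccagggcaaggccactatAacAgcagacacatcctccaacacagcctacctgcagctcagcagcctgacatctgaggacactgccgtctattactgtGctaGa
Ighv14-1: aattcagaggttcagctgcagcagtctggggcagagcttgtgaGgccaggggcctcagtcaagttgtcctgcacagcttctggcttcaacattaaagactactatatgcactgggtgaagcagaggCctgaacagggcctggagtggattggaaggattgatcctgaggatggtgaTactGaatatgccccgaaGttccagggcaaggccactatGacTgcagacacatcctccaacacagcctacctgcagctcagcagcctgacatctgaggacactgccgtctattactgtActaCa
Ighv14-4: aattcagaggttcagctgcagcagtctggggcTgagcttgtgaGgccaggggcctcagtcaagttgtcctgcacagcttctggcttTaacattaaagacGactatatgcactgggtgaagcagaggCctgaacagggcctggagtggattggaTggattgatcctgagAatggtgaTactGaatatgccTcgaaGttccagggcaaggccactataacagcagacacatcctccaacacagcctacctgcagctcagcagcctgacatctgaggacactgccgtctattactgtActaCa

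Ighv14-2 was 97.2% identical to Ighv14-1 and 95.7% identical to Ighv14-4, with 10 and 15 differing bases over the whole 351. Of the stretches of 67 bases in Ighv14-2, the length of 1 read, 21.4% occurred in another annotated gene as well, so part of its reads could not be placed by sequence alone. Yet the Ighv14-1 and Ighv14-3 rows had 0 counts in every library.

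The Ighv14-2 row had 9 counts in the lowest control library, a median of 12.2 CPM over controls and 86 counts in the highest, and 0 counts in all 6 transgenic and all 5 knockout libraries. Every control library thus lay above every other library. Against a floor of 3 counts over the whole group, its level was at least 85.5-fold higher in control than in transgenic libraries and at least 74.5-fold higher than in knockout libraries. The row passed the low-count filter through its control libraries alone and so had to differ. Its calls by edgeR's quasi-likelihood test are therefore counted below without a p and support nothing by themselves, and when control replicate 1, 2, 3, 5 or 6 was left out it was no longer tested. No fold is given for transgenic against knockout, where both groups were at 0.

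The other heavy variable rows were lower in counts and most were highest in controls too. Of the 11, 10 had their highest mean in the control group, and controls held 665 of the counts on these rows against 72 in transgenic and 80 in knockout libraries, or 81.4% of the total. Several of these rows reached the member minimum only through their control counts, which favours this order. How often rows of the whole table were highest in controls was not counted, so the order describes the set. Between 7 and 11 of the 11 rows had a count in each control library, against 3 to 6 in transgenic and 2 to 4 in knockout libraries. The Ighv8-7 row had 10, 1, 14, 0, 0 and 6 counts in control replicates 1 to 6 and the Ighv1-25 row 6, 0, 1, 0, 1 and 13, and both had 0 counts in all transgenic and knockout libraries. The Ighv8-16 row had 0 to 25 counts in controls, 0 to 5 in transgenic and 0 in all knockout libraries. The Ighv1-42 row reached 35 and 41 counts in control replicates 1 and 5 and at most 4 in any other library, so its group mean rests on those libraries. The exception to the order was the Ighv1-1 row, with its highest mean in knockout libraries. The group means of the Ighv14-4 row were close, at 1.39, 1.59 and 1.65 CPM in transgenic, knockout and control libraries.

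**Figure D1:**
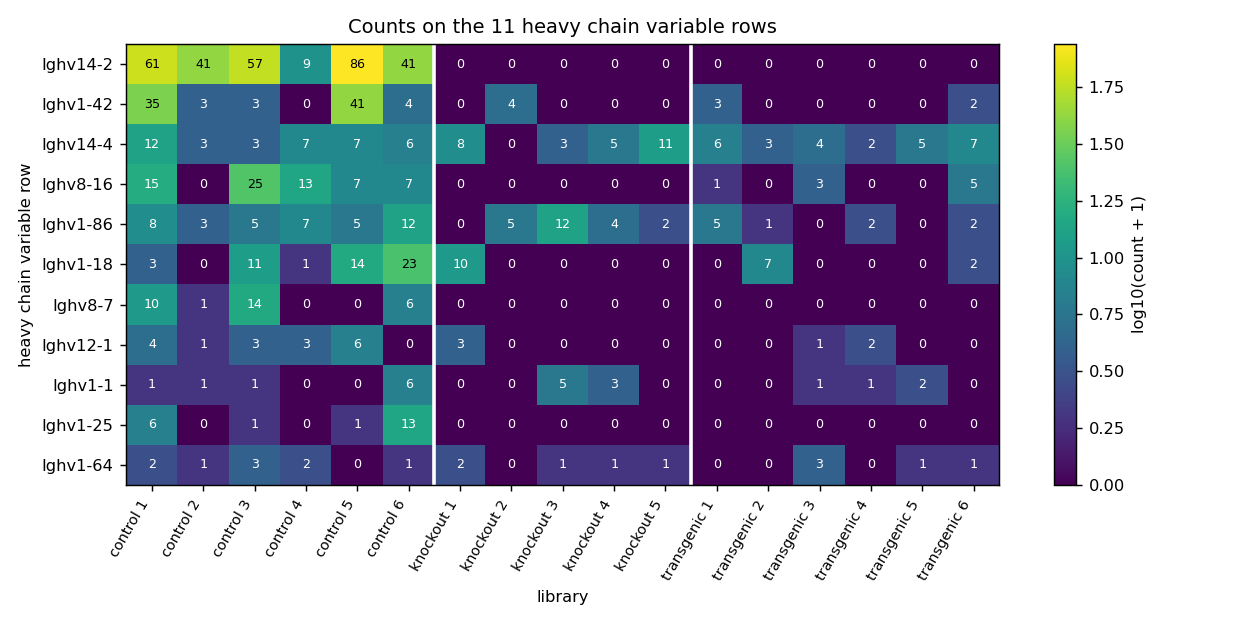
Counts on the 11 heavy chain variable rows (vertical axis) in each of the 17 libraries (horizontal axis), with colour as log10 of count plus 1 and the count printed in each cell. The Ighv14-2 row holds 9 to 86 counts in control libraries and 0 in the others.

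Summed over the 11 heavy variable rows, controls held 12.04, 33.1 and 48.8 CPM as the lowest, median and highest value, transgenic libraries 2.04, 3.50 and 5.61, and knockout libraries 6.13, 2.91, 5.96, 3.61 and 4.56 in replicates 1 to 5. All controls lay above all other libraries, with ratios of the means of 0.126 for transgenic and 0.157 for knockout over control. Without the Ighv14-2 row the control mean was 16.3 ± 7.98 CPM (SD, n = 6), against 3.71 ± 1.43 (SD, n = 6) and 4.63 ± 1.41 (SD, n = 5), and control replicate 2, at 3.63 CPM, then lay among the others. These sums are descriptions and carry no test, as do all sums below, and they hold rows that became members through their control counts.

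The sum of the 5 heavy chain constant rows had another order than the variable rows, with the transgenic group highest. Of the single rows, the Ighg3, Ighg2b and Ighm rows had their highest mean in the transgenic group, the Ighg1 row in the knockout group (13.7 CPM) and the Ighd row in the control group (2.52 CPM). The sum was 78.0, 92.0 and 100.4 CPM as the lowest, median and highest of transgenic libraries. It was 31.2, 39.2, 30.6, 34.4 and 38.8 CPM in knockout replicates 1 to 5, and 31.9, 38.2 and 65.7 as the lowest, median and highest of controls. The transgenic libraries did not overlap either other group, at 2.18 times the control mean and 2.61 times the knockout mean, while knockout and control libraries overlapped. In bulk samples fewer cells of a type and less RNA per cell cannot be told apart.

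Most of that sum lay on the IgG rows. The first 120 bases of the Ighg1 (chr12:113325240-113330523), Ighg2b (chr12:113302965-113307933) and Ighg3 (chr12:113356224-113361232) transcripts, all on the minus strand of GRCm38, show how like these neighbours are, since their rows differ in their values. Capitals mark the 35 bases at which the 3 are not all the same.
Ighg1: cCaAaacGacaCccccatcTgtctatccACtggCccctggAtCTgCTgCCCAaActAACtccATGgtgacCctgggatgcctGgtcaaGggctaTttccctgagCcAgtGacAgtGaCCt
Ighg2b: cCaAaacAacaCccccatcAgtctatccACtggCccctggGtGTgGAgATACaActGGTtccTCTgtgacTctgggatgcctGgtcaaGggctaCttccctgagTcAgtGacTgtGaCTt
Ighg3: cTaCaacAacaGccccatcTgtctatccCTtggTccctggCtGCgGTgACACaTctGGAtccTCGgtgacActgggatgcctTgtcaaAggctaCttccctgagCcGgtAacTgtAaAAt

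Of the stretches of 67 bases in these genes, 0.0% of Ighg1, 1.7% of Ighg2b and 0.9% of Ighg3 occurred in another gene, so reads of this length can tell them apart.

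The Ighg2b row, of the IgG2b heavy chain, varied most. It held 23.5, 32.6 and 41.9 CPM as the lowest, median and highest of transgenic libraries, 2.40, 3.24, 0, 0.555 and 1.30 in knockout replicates 1 to 5, and 0.559, 6.46 and 25.4 as the lowest, median and highest of controls. All transgenic libraries lay above all knockout libraries, and only control replicate 1 reached into the transgenic range. The row was higher in transgenic than in knockout libraries by 4.43 on the log2 scale (SE 0.67, adjusted p = 0.00011, Benjamini-Hochberg adjustment over all 9986 rows tested), and this call held in all 28 alternatives run. It rose against control by 1.68 (SE 0.49, adjusted p = 0.038) and fell in knockout against control by 2.75 (SE 0.69, adjusted p = 0.042). Both of those calls were close to the threshold: the first ended in 10 of 28 alternatives, among them each fit without transgenic replicate 1, 2, 4, 5 or 6 or control replicate 2, 3, 4 or 6, with values from 1.43 to 2.34. The second ended in 14 of 28, among them each fit without transgenic replicate 2, 3, 4, 5 or 6, knockout replicate 3 or 5 or control replicate 1, 3 or 5, with values from -3.20 to -2.17 and an adjusted p of up to 0.34.

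The Ighg3 row, of the IgG3 heavy chain, had the most counts of all members, 1395. It held 34.45, 36.7 and 42.5 CPM as the lowest, median and highest of transgenic libraries, 13.9, 17.8, 22.7, 13.9 and 18.9 in knockout replicates 1 to 5, and 11.4, 14.65 and 22.7 in controls. Transgenic libraries lay above all others, and knockout and control libraries covered the same range. It rose in transgenic against control libraries by 1.27 on the log2 scale (SE 0.17, adjusted p = 0.000025) and against knockout libraries by 1.12 (SE 0.18, adjusted p = 0.00021), and neither call ended in any of the 28 alternatives. For knockout against control the log2 fold change was 0.15 (95% interval -0.20 to 0.51, adjusted p = 0.64).

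By contrast, the Ighg1 row, of the IgG1 heavy chain, passed the test in none of the comparisons. Its lowest, median and highest values were 9.77, 13.4 and 16.3 CPM in transgenic and 6.14, 11.5 and 13.1 in control libraries, with 11.7, 18.1, 7.37, 12.8 and 18.6 in knockout replicates 1 to 5. The groups overlapped throughout. The 95% intervals of its log2 fold change were -0.16 to 0.78 for transgenic against control and -0.12 to 0.86 for knockout against control.

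Levels were lower on the Ighm and Ighd rows, of the IgM and IgD heavy chains that naive B cells carry together. The Ighm row held 1.72, 5.51 and 9.90 CPM as the lowest, median and highest of transgenic libraries, 2.93, 0, 0, 1.11 and 0 in knockout replicates 1 to 5, and 2.24, 3.16 and 4.05 in controls. It was higher in transgenic than in knockout libraries by 2.70 (SE 0.66, adjusted p = 0.01). Without knockout replicates 2, 3 and 5 together, the libraries with fewer rows detected and the only ones at 0 counts here, the value was 1.49 and the call ended (adjusted p = 0.11), and without knockout replicate 1 it was 4.12. Against control its log2 fold changes were 0.85 (SE 0.53, adjusted p = 0.43) for transgenic and -1.84 (SE 0.67, adjusted p = 0.13) for knockout libraries, and the second became a call at -3.26 (adjusted p = 0.018) without knockout replicate 1. The Ighd row, not tested for its low counts, had 2 to 10 counts in transgenic, 5 to 14 in control and 0 to 22 in knockout libraries, where 22 of the 25 counts were in replicate 4.

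**Figure D2:**
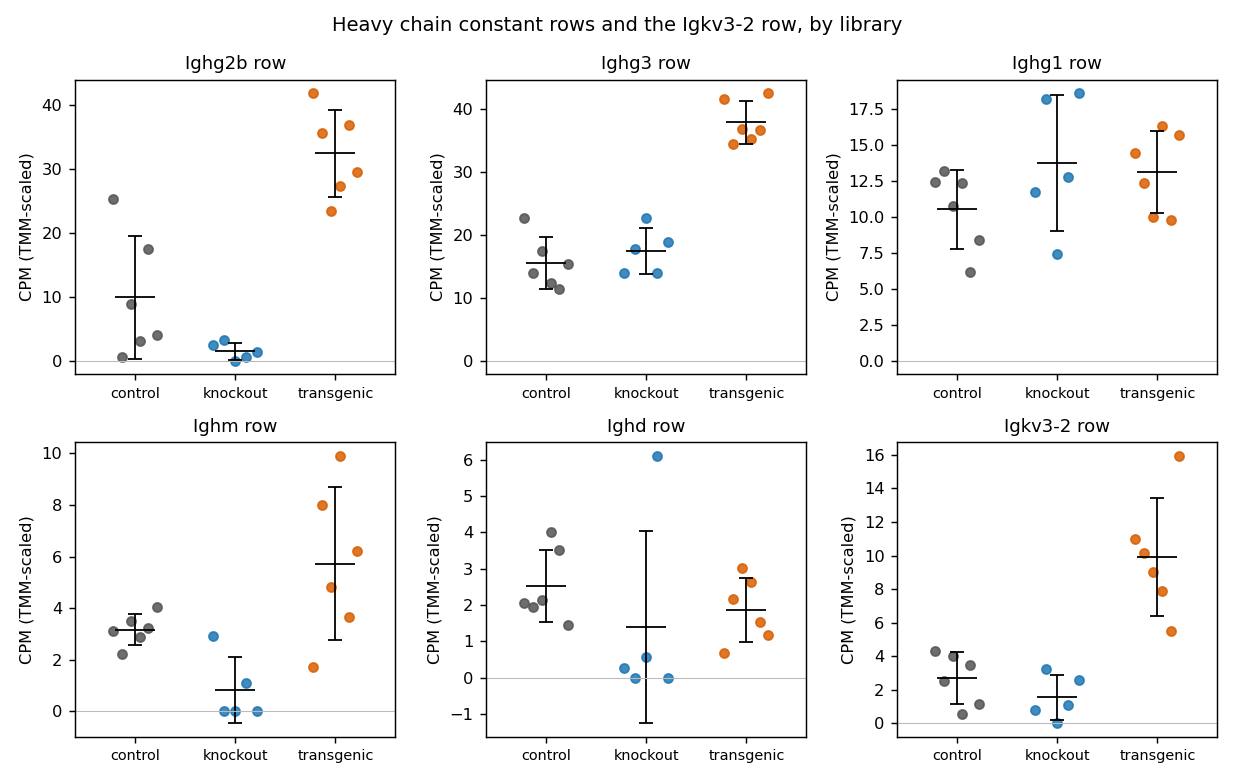
CPM (vertical axes, a scale per panel) of the 5 heavy chain constant rows and the Igkv3-2 row by group (horizontal axes), with points for libraries, long bars for means and whiskers for SD. Transgenic points of the Ighg3 row, at 34.45 to 42.5 CPM, lie above all others, whereas the groups of the Ighg1 row overlap.

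The 5 kappa rows are all named after variable segments, and the Igkv3-2 row held most of their counts, 282. It had 5.49, 9.595 and 15.9 CPM as the lowest, median and highest of transgenic libraries, 0.799, 3.24, 0, 1.11 and 2.61 in knockout replicates 1 to 5, and 0.574, 3.01 and 4.34 in controls. All transgenic libraries lay above all others. The row rose in transgenic libraries by 1.85 against control (SE 0.47, adjusted p = 0.016) and by 2.69 against knockout libraries (SE 0.54, adjusted p = 0.0021). The first call ended without transgenic replicate 6, at 1.66 (adjusted p = 0.053), and the second in none of the 28 alternatives. Knockout against control gave -0.84 (SE 0.57, adjusted p = 0.38). With only knockout and control libraries fitted the row was not tested, so it passed the low-count filter through its transgenic libraries. The filter thus favoured a difference, and the calls of the Igkv3-2 row support nothing by themselves.

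Among the other kappa rows no call was made. The Igkv4-80 row had 6 to 17 counts in every control library, was at 0 in 4 of 6 transgenic and 3 of 5 knockout libraries, and reached 14 counts in transgenic replicate 1 and 10 in knockout replicate 3. Its log2 fold changes were -2.06 (SE 0.90, adjusted p = 0.20) and -2.36 (SE 0.98, adjusted p = 0.17) for transgenic and knockout against control. The Igkv4-80 row passed the low-count filter largely through its controls, and was not tested when control replicate 2, 3, 4 or 5 was left out. The filter thus favoured lower values against control, and these fold changes support nothing by themselves. The Igkv11-125 row was detected in all 17 libraries at 0.287 to 5.49 CPM, with the groups overlapping and adjusted p of 0.55, 0.93 and 0.42. The Igkv2-112 row, not tested, ran from 0.590 to 2.04 CPM in transgenic libraries, below all controls at 2.29 to 4.75, and from 0 to 1.30 CPM in knockout replicates other than replicate 4, which held 7.49. The same knockout replicate 4 held the highest value of the Ighd row.

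Summed by locus, the heavy chain rows reached 94.7 ± 8.26 CPM (SD, n = 6) in the transgenic group, 39.5 ± 3.03 (SD, n = 5) in the knockout group and 71.1 ± 21.6 (SD, n = 6) in the control group. Control libraries ran from 46.7 to 98.1 CPM, all above the 36.6 to 43.3 of knockout libraries and overlapping the 81.6 to 105.5 of transgenic ones. The kappa rows held 15.3 ± 3.02 (SD, n = 6), 6.59 ± 2.35 (SD, n = 5) and 11.7 ± 2.29 (SD, n = 6) CPM in the same order, and knockout and control libraries overlapped. Both locus sums thus had the order transgenic, control, knockout, but no single order held for the rows within them. In transgenic libraries the Ighg3 and Ighg2b rows made 40.0 and 34.3% of the heavy chain sum. In knockout libraries the Ighg3 and Ighg1 rows made 44.15 and 34.75% of it and the Ighg2b row 3.80%, and in controls the Ighg3 and Ighv14-2 rows led with 21.9 and 18.5%. Leaving out the row with the highest mean moved the log2 ratio of the heavy chain sum, transgenic over control, from 0.41 to 0.03, and that of the kappa sum from 0.38 to -0.75. The ratios of transgenic over control thus rest largely on the Ighg3 and Igkv3-2 rows.

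**Figure D3:**
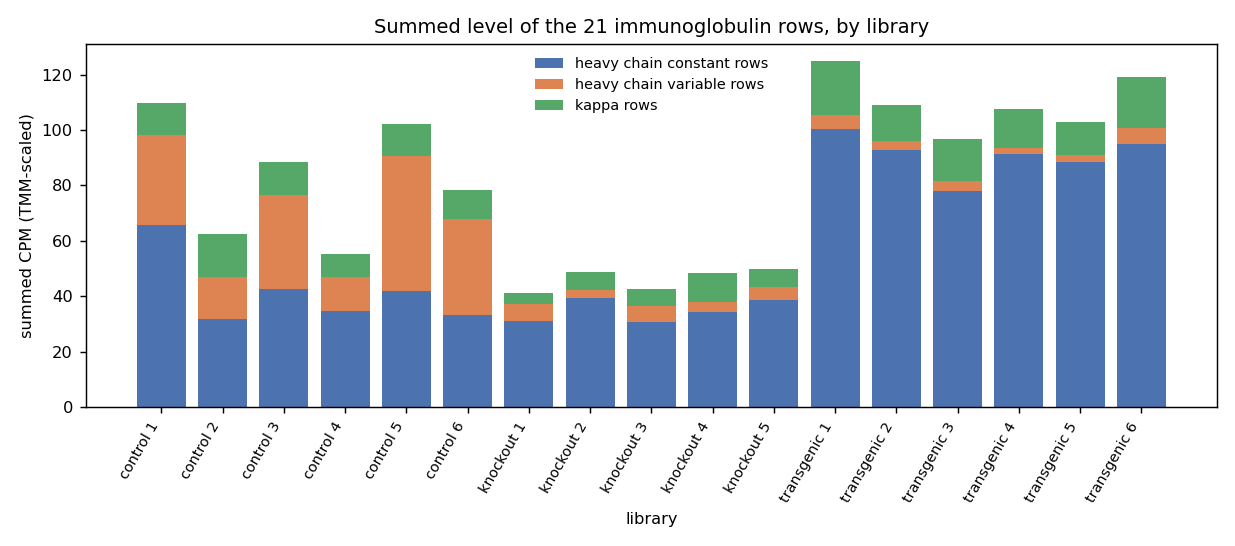
Summed CPM (vertical axis) of the 21 immunoglobulin rows in each of the 17 libraries (horizontal axis), stacked as heavy chain constant, heavy chain variable and kappa rows. Heavy variable rows hold 12.04 to 48.8 CPM in controls and at most 6.13 in the other libraries, and constant rows at least 78.0 in transgenic libraries.

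Transgenic against control libraries asks what differs when Nfkbid is overexpressed. Of the 8 members with enough counts to be tested, 3 rose (the Ighg2b, Ighg3 and Igkv3-2 rows) and 1 was called lower (the Ighv14-2 row). Beside them, 7.4% of all 9986 rows were called in this comparison, 5.23% higher and 2.17% lower. The Ighv14-2 row was tested through its control counts alone, and the Igkv3-2 row passed the filter through its transgenic libraries. The median log2 fold change of the tested members was 0.76, against -0.01 over all rows. It takes in the Ighv14-2 row, whose fitted value has no fixed size and which lowers it. Of the 8 tested members, 3 had groups that did not overlap, beside 7.1% of all rows tested. Among all 21 members, tested or not, there were 4. The members were not a random draw of rows, since low rows pass the filter only where a group is high, so these counts describe the set.

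Knockout against control libraries asks what differs when Nfkbid is lost. Here 2 of the 8 tested members were called lower, the Ighg2b row and, again through its control counts alone, the Ighv14-2 row, beside 1.89% of all rows called, 0.881% higher and 1.01% lower. No member was called higher by edgeR, DESeq2 or limma with voom, and at an unadjusted p under 0.05 edgeR picked 4 members. The median log2 fold change was -1.34, against -0.02 over all rows, but it takes in the Ighv14-2 row, which lowers it and had to differ. Of the 8 tested members only the Ighv14-2 row had groups that did not overlap, beside 2.75% of all rows tested.

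In transgenic against knockout libraries, the largest contrast in Nfkbid dose by label, 4 of the 8 tested members rose, the Ighg2b, Ighg3, Ighm and Igkv3-2 rows, beside 10.7% of all rows called, 6.34% higher and 4.33% lower. The Igkv3-2 row again passed the filter through its transgenic libraries. The median was 0.95, against 0 over all rows. It takes in the Ighv14-2 row, which was empty in both groups and lowers it, and the Igkv3-2 row, which raises it. Of the 8 tested members, 3 had groups that did not overlap, beside 6.17% of all rows tested. Since the first pair of comparisons shares its controls and each genotype enters a pair of comparisons, these counts are not independent.

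**Figure D4:**
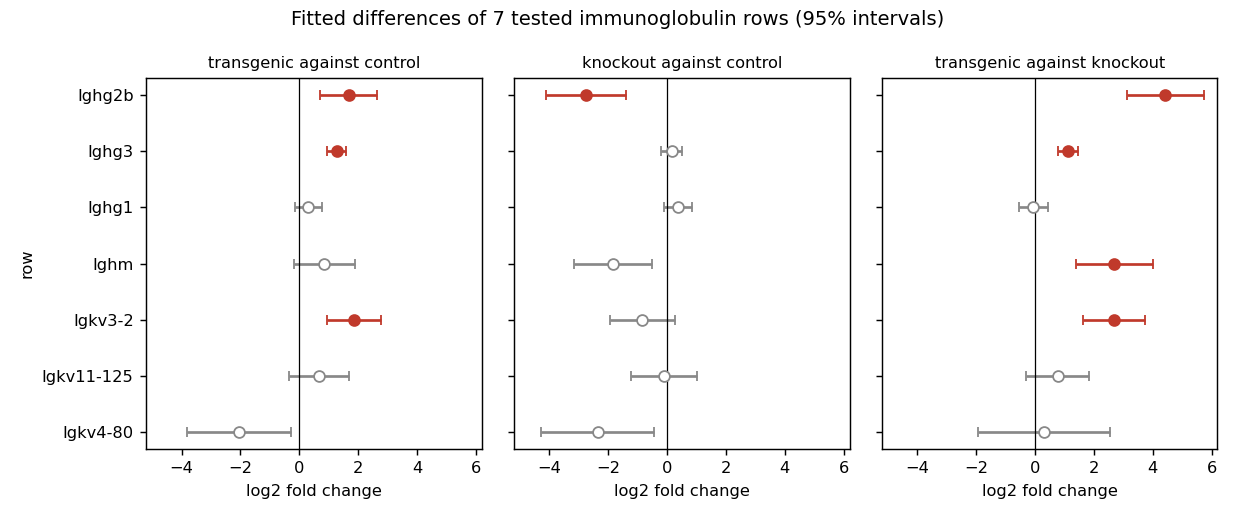
Log2 fold changes (horizontal axes) with 95% intervals of 7 tested rows (vertical axis) in the 3 comparisons, with filled red points where the adjusted p was 0.05 or less. The Ighv14-2 row is left out because its fitted value against groups at 0 has no fixed size. The Ighg2b row lies at 1.68, -2.75 and 4.43.

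Some rows inside the loci carry no segment name, and the largest of them had far more counts than any member. The heavy chain locus (chr12:113254830-116010093) held 7 such rows with 17 or more counts, of which 3 were tested, and 2 rose in transgenic against control and against knockout libraries. The Gm17421 row, an unprocessed pseudogene at chr12:113369522-113372201 between Ighg3 and Ighd, had 9963 counts, more than all 21 members together. Transgenic libraries held 252 ± 43.3 CPM (SD, n = 6) of it, knockout libraries 120 ± 24.99 (SD, n = 5) and controls 130 ± 26.2 (SD, n = 6), with a log2 fold change of 0.95 (SE 0.15, adjusted p = 0.00018) against control and 1.07 (SE 0.16, adjusted p = 0.000091) against knockout. Transgenic libraries lay above all others, at 199 to 305 CPM against 84.7 to 163.8. The Adam6b row, an ADAM-family gene kept within the heavy chain locus, held 26.4 ± 5.04 CPM (SD, n = 6), 5.92 ± 1.66 (SD, n = 5) and 6.46 ± 1.01 (SD, n = 6) in the same order and rose by 2.02 (SE 0.19, adjusted p = 2.4e-07) against control. Neither differed by the test between knockout and control, at -0.12 each (adjusted p = 0.67 and adjusted p = 0.76).

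In the kappa locus (chr6:67555497-70726966), 2 of 4 such rows were tested, and both were highest in controls. The Gm5308 row, a processed pseudogene, held 29.7 ± 11.5 CPM (SD, n = 6) in controls, at least 14.1 in each, against 0 in 4 of 6 transgenic and 4 of 5 knockout libraries and 6.53 CPM in transgenic replicate 1, the highest outside controls. Its only counts outside controls were 19 and 2 in transgenic replicates 1 and 3 and 2 in knockout replicate 1, against 49 to 211 in controls. It passed the low-count filter through controls alone, and no fold or p is given for it. The Gm6157 row, also a processed pseudogene, had 14.9 ± 7.88 CPM (SD, n = 6) in controls, 1.57 ± 1.77 (SD, n = 6) in transgenic and 1.85 ± 2.98 (SD, n = 5) in knockout libraries. This row too passed the low-count filter through its controls, and no fold or p is given for it. Its groups overlapped: control replicate 4 held 3.44 CPM, transgenic replicate 6 held 3.54 and knockout replicate 5 held 6.84. The Gm5308 row, like the Ighv14-2 row, was higher in every control than in every other library. What the prefix of the control library names stands for and the genotype cannot be told apart here.

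**Figure D5:**
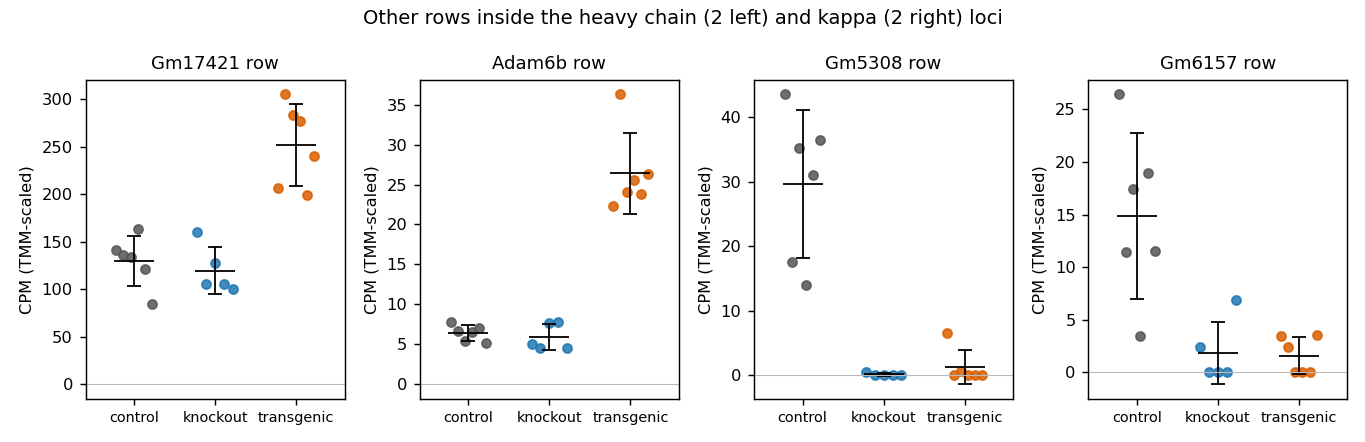
CPM (vertical axes, a scale per panel) of 4 rows inside the loci that are not named after a segment, by group (horizontal axes), with points for libraries, long bars for means and whiskers for SD. The Gm17421 and Adam6b rows are highest in transgenic libraries, the Gm5308 and Gm6157 rows in controls.

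Exons of each row were shifted along GRCm38 to see which gene they would meet, with the distance scored by Spearman's rho, across rows, between the mean count and the share of moved exon bases on exons of protein-coding genes. Only rows that are no immunoglobulin rows entered, and rows are not independent replicates. In and around the kappa locus the best distance was 33.0, 33.0 and 33.5 kb for flanks of 3, 5 and 10 Mb, with a rho of 0.585 against 0.432 for unmoved rows over 3 Mb. Around the heavy chain locus it was 54.0, 0.0 and 44.5 kb, with a rho of 0.621 against 0.594 over 3 Mb, so it was not settled there. Moved by 48.4 to 58.2 kb, the Ighg2b row met the exons of Ighg3, and by 17.4 to 27.4 kb those of Ighg1. The Ighg3 row met Ighd exons from 45.5 kb, the Gm17421 row those of Ighm at 46.5 to 53.1 kb, and the Igkv3-2 row those of Igkc at 27.5 to 28.4 kb, a range that does not hold the best kappa distance. The Ighv1-86 row, at the end of the heavy chain locus, met the protein-coding gene Zfp386 beyond it at 37.8 to 53.6 kb. Which gene each row counts was therefore not established, and a moved row can leave its locus, so locus sums carry the same limit.

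Markers of other cells that a spleen sort could hold were read from the same table, with the same limit on names. Of 20 B cell marker rows, 8 had 0 counts in every library, among them the Cd79b, Ebf1 and Blk rows, and summed levels were 198 to 284 CPM in the transgenic group, 196 to 272.5 in the knockout group and 227 to 309 among controls. Of the 3 tested, edgeR called 0 in each comparison. At an unadjusted p under 0.05 there were 0, 2 and 0 for transgenic against control, knockout against control and transgenic against knockout, DESeq2 called 0, 1 and 0, and voom called 0 in each. The Cd79a row, of a chain of the B cell receptor, held 52.8 ± 17.7, 39.9 ± 20.4 and 72.6 ± 7.67 CPM (SD, n = 6, 5 and 6) in the transgenic, knockout and control groups, with a log2 fold change of -0.85 (SE 0.28, adjusted p = 0.096) in knockout against control. The Ms4a1 row reached at most 15 counts and the Jchain row, of the joining chain of secreted IgM and IgA, at most 16.

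Of 15 plasma cell rows 6 were tested. Summed levels of all 15 were 438 to 648 CPM in the transgenic group, 411 to 728 in the knockout group and 376 to 425 among controls. The Prdm1 row, of the regulator Blimp-1 that plasma cells share with effector Tregs, fell in knockout against control by 1.82 (SE 0.30, adjusted p = 0.0014) and was higher in transgenic than in knockout libraries by 2.53 (SE 0.30, adjusted p = 4.4e-06). The Irf4 row, of a factor that both cell types also share, was higher in that last comparison by 0.66 (adjusted p = 0.015). The other tested rows of the list were not called there, with the Creld2 row at -0.61 (adjusted p = 0.091), the Xbp1 row at -0.30 (adjusted p = 0.25) and the Cd28 row at -0.10 (adjusted p = 0.89), and the list's median was -0.06. The Xbp1 row, of a secretory regulator, made up most of the summed level, at 380 ± 85.4, 467 ± 136 and 306 ± 24.4 CPM (SD, n = 6, 5 and 6) in the transgenic, knockout and control groups, and stood at 0.61 (adjusted p = 0.051) in knockout against control. In transgenic against control edgeR called 0 of the 6, with 2 at an unadjusted p under 0.05 and 1 call each by DESeq2 and voom. Of 20 rows for recombination and class switching 7 were tested, and the Dclre1c row, of the Artemis nuclease, rose by 0.37 (adjusted p = 0.045) against control and 0.50 (adjusted p = 0.0075) against knockout. The Rag1 row, of the recombinase, had adjusted p of 0.94, 0.33 and 0.41, and stood at 0.30 in transgenic against knockout. In that comparison the Lig4 row stood at -0.34 (adjusted p = 0.052), and the list's median was -0.14. Sums of the class II presentation rows (1 of 7 tested) ran from 40.6 to 71.5, 40.2 to 68.6 and 42.7 to 59.9 CPM in transgenic, knockout and control libraries, and those of the macrophage and myeloid rows (3 of 10 tested) from 53.1 to 66.3, 48.6 to 68.5 and 49.2 to 63.6. Of the 13 T cell and Treg rows 10 were tested. The Ikzf2 row, of the Treg factor Helios, rose in transgenic by 0.48 (adjusted p = 0.021) and in knockout libraries by 0.53 (adjusted p = 0.041) against control. The Ctla4 row was higher in transgenic than in knockout libraries by 0.75 (adjusted p = 0.021). The list's median there was -0.19, with the Lck row at -0.74 (adjusted p = 0.082), the Il2ra row at -0.29 (adjusted p = 0.089) and the Foxp3 row at 0.02 (adjusted p = 0.90). Whether cells of other types have a part in the values of the immunoglobulin rows was not tested.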

How the data were processed

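Splenic Treg RNA was measured by polyA RNA-seq with 67 bp reads and 9 bp molecular identifiers, per the labels. The sources do not say whether identifiers served to collapse duplicates. The authors deposited expected counts per gene; reads were aligned with Bowtie2 to GRCm38 per the submitters' processing notes. Of the values, 5.87% were not whole, and all were rounded here. Replicates are the libraries of the labels, whose spread is what the p-values measure.

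Differences were tested with edgeR 4.0.16 (R 4.3.3), by its quasi-likelihood F test with TMM factors, filterByExpr and all 17 libraries in 1 fit, at a threshold of 0.05 after Benjamini-Hochberg adjustment (9986 rows). The fit had a common biological coefficient of variation of 0.241 and was tested on simulated data. Alternatives were DESeq2 1.42.0, limma 3.58.1 with voom, other normalizations and filters, a replicate block and each library left out. Libraries of 1 group differed by at least 2.62 chi-square per degree of freedom over 40 pairs, above sampling noise.

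Named rows were the top row of each locus, all constant rows, called members and called marker rows. Other rows were picked after their values were seen. Members and lists were chosen with earlier results of these data known. Some marker rows counted in the list totals are not reported here by name.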

Additional observations from a re-analysis of the deposited data

Results flagged for a closer look

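Of 28 groups of values examined (the tested members and both locus sums in each genotype), 2 had 1 library far from the others, and chance alone flags about 1 in 20. Both were in the Igkv4-80 row. Transgenic replicate 1 held 4.81 CPM, or 14 counts, where the other transgenic libraries held 0 to 0.308 CPM. Knockout replicate 3 held 2.84 CPM, or 10 counts, where the other knockout libraries held 0 to 0.278 CPM. Control libraries of this row ran from 1.74 to 4.88 CPM, so both values lay within the range of controls. With transgenic replicate 1 left out the row's log2 fold change was not computed, since it then missed the low-count filter. With knockout replicate 3 left out it was -4.98 for knockout against control (adjusted p = 0.074 by edgeR's quasi-likelihood test), against -2.36 with all libraries.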

How the results depend on the processing

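Depth is the main limit: 13 of the 21 members did not pass the low-count filter and have no test in the reported fit. The count of members called in transgenic against knockout, 4, ranged from 3 to 4 over the 28 alternatives and was 4 without any 1 library. In transgenic against control the 4 calls became 7 with no low-count filter (25341 rows tested), which added lower calls for the Ighv1-25, Ighv1-42 and Ighv8-7 rows. Those rows, and the Ighv8-16 row added below, reached the minimum of 17 counts only through their control counts. A lower call against control was thus favoured, and the added calls support nothing by themselves. In the same comparison, leaving out single libraries gave 2 to 4 calls, with 2 without transgenic replicate 6 or control replicate 2, 3 or 6. In knockout against control the 2 calls became 5 with no low-count filter (the Ighv1-42, Ighv8-16 and Ighv8-7 rows were added), 3 with the stricter filter, and 1 with limma and voom, with only the 2 groups compared, with the replicate block and without knockout replicates 2, 3 and 5 together, an alternative chosen after seeing the data. Single libraries left out gave 0 to 3, with 0 without control replicate 1, 3 or 5, 3 without knockout replicate 1, and 1 without transgenic replicate 2, 3, 4, 5 or 6, knockout replicate 3 or 5 or control replicate 2 or 6. Filters and left-out libraries also change which rows are tested; otherwise the cause was not tested.

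Without the row with the highest mean, the log2 ratio of the heavy chain sum moved from 0.41 to 0.03 for transgenic and from -0.85 to -1.33 for knockout over control, and that of the kappa sum from 0.38 to -0.75 for transgenic over control and from 1.21 to 0.09 for transgenic over knockout. Leaving out single libraries kept every sum ratio's direction, with 0.32 to 0.53, -0.95 to -0.74 and 1.23 to 1.30 for the heavy chain and 0.31 to 0.49, -1.05 to -0.68 and 1.07 to 1.43 for kappa. The lambda sum had no members and no value.

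Reversals touched only differences that were not called, with adjusted p of 0.83 to 1. The Ighg3 row gave -0.18 in knockout against control without knockout replicates 2, 3 and 5. The Igkv11-125 row gave 0.23 with voom and 0.03 with the replicate block there, and from -0.32 to 0.02 with single libraries left out, positive without knockout replicate 4. In transgenic against knockout, the Igkv4-80 row gave -0.06 with voom and from -0.02 (without knockout replicate 1) to 2.92 with single libraries left out. The Ighg1 row gave 0 with voom, from -0.22 to 0.07 with single libraries left out, above 0 without transgenic replicate 3 or 5 or knockout replicate 2 or 5, and 0.10 without knockout replicates 2, 3 and 5. With voom the Igkv4-80 row was called in transgenic against control, at -3.35 (adjusted p = 0.0085). That row passed the low-count filter largely through its controls, so this call supports nothing by itself. The Ighm call of transgenic against knockout ended with only those groups fitted (2.70, at the threshold after rounding).

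Replicate numbers in the titles gave no pairing of libraries: of 16 same-number pairs, with correlations of -0.517 to 0.364, 1 was over 0.1. With the replicate block, 4, 1 and 4 members were called in transgenic against control, knockout against control and transgenic against knockout, and the Ighg2b row in knockout against control had -2.66 (adjusted p = 0.09).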

Other observations

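Further rows of the heavy chain locus that carry no segment name of the rule spread unevenly over libraries. The Adam6a row, next to the Adam6b row, had 88 counts in control replicate 3, 46 in control replicate 5 and 41 in control replicate 1, and 0 to 4 counts in the other controls. It had 33 and 17 counts in transgenic replicates 1 and 2 and 25 in knockout replicate 1, and its fitted differences against control were -1.44 (SE 1.04, adjusted p = 0.50 by edgeR's quasi-likelihood test) and -2.03 (SE 1.14, adjusted p = 0.29). The Rpl26-ps3 row, a processed pseudogene not tested for its low counts, held 2.85 ± 1.57 CPM (SD, n = 6) in controls, 0.163 ± 0.282 (SD, n = 6) in transgenic and 0.261 ± 0.583 (SD, n = 5) in knockout libraries, with all controls above all transgenic libraries.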
